A study of Saccharomyces cerevisiae with 2 samples.

Results

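The 10 genes described here encode the subunits and regulators of β-1,3-glucan synthase and the proteins that assemble β-1,6-glucan in *Saccharomyces cerevisiae*. They were chosen by their function from the 6207 ORFs of the table, by a rule that uses no measured value, although earlier results of these data were known. They are FKS1 (YLR342W), GSC2 (YGR032W), FKS3 (YMR306W), RHO1 (YPR165W) and SMI1 (YGR229C) for the synthase, and KRE6 (YPR159W), SKN1 (YGR143W), KRE9 (YJL174W), KNH1 (YDL049C) and KRE1 (YNL322C) for β-1,6-glucan. Of the 10, 4 had a value in both replicates, as 50.2% of all ORFs did, SMI1 had one in replicate 1 alone, and 5 were blank in both.

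The study compared caspofungin-treated cells with untreated cells on 2-colour DNA microarrays. Both groups were wsc1 mutants of the laboratory strain BY4741, so treated and untreated cells alike carried a mutation in the gene of Wsc1, a plasma membrane sensor of wall stress. The labels do not give the kind of mutation. The treated cells had grown at 24 °C in rich medium with 15 ng/ml caspofungin for 2 h, and the untreated cells came from the other part of the same divided culture and grew on without the drug. Caspofungin RNA carried Cy3 in replicate 1 and Cy5 in replicate 2, and untreated RNA carried the other dye.

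β-1,3-glucan gives the yeast wall its strength. It is made at the plasma membrane by a synthase whose catalytic subunit is Fks1 or its paralogue Gsc2 (Fks2), and the small GTPase Rho1 activates the enzyme when it is bound to GTP. Caspofungin, an echinocandin, inhibits this synthase. β-1,6-glucan is a shorter branched polymer that links mannoproteins to the β-1,3-glucan network, and many of its genes were found as mutants resistant to the K1 killer toxin (KRE), which binds it. In wild-type cells, GSC2 is known as a gene whose transcription rises under wall stress, through the cell wall integrity pathway and calcineurin.

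Each value is the log2 of a dye ratio for 1 ORF in 1 replicate. No source used here says which dye is the numerator. Both columns were taken as the same dye ratio, because they were negatively correlated while the dyes were exchanged. Replicate 1 was then multiplied by -1, which puts caspofungin RNA on the same side of the ratio in each replicate. With Cy5 as the numerator, a positive turned value means more RNA with caspofungin, and with Cy3 as the numerator it means less, so no direction of regulation is given. It is not stated whether the replicates are separate cultures or 1 culture labelled in both ways. The p-values reflect no more than the spread between these 2 samples, which may be technical. In limma, the spread of each ORF is moderated towards that of all ORFs. Replicate 1 held 3705 values and replicate 2 held 3166, and 3117 ORFs had both. Over these ORFs, which are not independent, Pearson's r between the columns as deposited was -0.294. WSC1 was blank in both replicates, as were MET17 and URA3, deleted in BY4741. HIS3 and LEU2, also deleted there, had turned values of 0.071 and 0.41 (HIS3) and 0.12 and 0.47 (LEU2) in replicates 1 and 2. Their means, 0.24 and 0.29, were farther from 0 than those of RHO1, KRE1 and KRE9 given below. What gave a value for deleted genes was not tested, and no source used here places their probes inside or outside the deletions. Spot intensities were not used here. The number of arrays limits the precision.

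FKS1 had the greatest mean of the 4 genes with both values, and its replicates disagreed. The dye ratio of FKS1, 2 raised to its deposited log2 value, was 0.591 in replicate 1 and 0.947 in replicate 2. On the log2 scale after turning these are 0.76 in replicate 1 and -0.079 in replicate 2, so replicate 1 lay well on the positive side and replicate 2 just below 0. The mean was 0.34 ± 0.59 (SD, n = 2), a size of 1.27-fold, with a 95% interval from -0.36 to 1.04 and an adjusted p of 0.544 (limma). The difference was thus smaller than the spread between the replicates. In replicate 1, 97.4% of the measured ORFs had a lower turned value than FKS1, and in replicate 2 45.1% did. The 2 replicates of FKS1 were 0.84 apart, against a median of 0.188 over the 3117 ORFs, and 5.97% of those ORFs were at least as far apart.

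Before turning, FKS1 had the same sign in both replicates, with log2 values of -0.76 and -0.079. The value therefore lay on one side of 0 under both dye orientations, although the caspofungin RNA changed dyes. In replicate 2 it was close to 0 and to that column's median of -0.044. The mean of the 2 deposited values was -0.42. Of the 3117 ORFs, 35.9% had the same deposited sign in both replicates. Dye preference of the FKS1 probe was not tested, because each orientation was deposited once. The FKS1 and GSC2 coding sequences are closely similar, and uptake of GSC2 RNA by the FKS1 probe was not tested either.

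The other synthase subunits had no value. GSC2, the stress-induced alternative catalytic subunit, and FKS3, a related protein known for a part in spore wall formation, were blank in both replicates. Among all ORFs, 39.5% were blank in both. What made the authors leave an ORF blank is not stated, so a blank cannot be read as a low level or as no change. FKS1 and GSC2 could not be compared with each other for this reason.

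The regulators of the synthase lay nearer to 0 than FKS1 in replicate 1. RHO1 had a dye ratio of 1.21 in replicate 1 and 0.984 in replicate 2, or turned log2 values of -0.27 and -0.024. Both were on the negative side, and replicate 2 was near 0. Of the measured ORFs, 12.0% had a lower turned value than RHO1 in replicate 1 and 52.7% in replicate 2. The mean of RHO1 was -0.15 ± 0.18 (SD, n = 2; 95% interval -0.49 to 0.20; limma adjusted p = 0.593). SMI1 (KNR4), a protein that affects β-1,3-glucan synthesis and interacts with the kinase Slt2, had a dye ratio of 0.901 and a turned value of 0.15 in replicate 1 and was blank in replicate 2. That single value has no replicate check, and 61.0% of the ORFs measured in replicate 1 were lower.

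**Figure D1:**
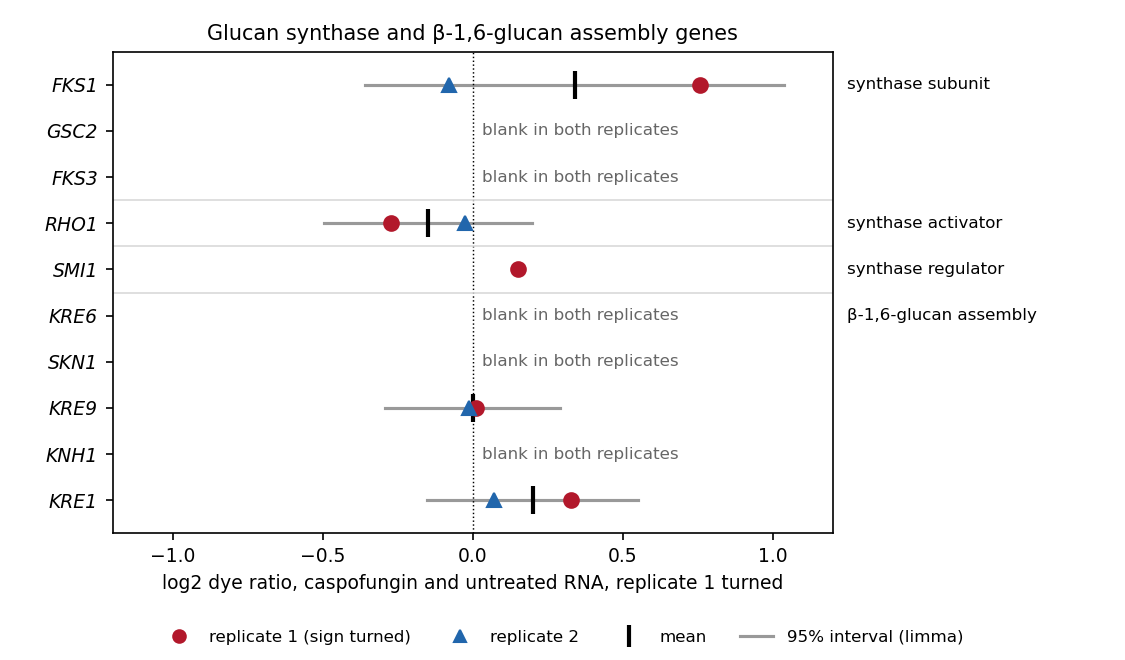
Turned log2 dye ratio (x axis) of each of the 10 genes (y axis, grouped by role), with replicate 1 as circles, replicate 2 as triangles, the mean as a black bar and the limma 95% interval as a grey line. The intervals of the 4 genes with 2 values all include 0, the points of FKS1 are the farthest apart (0.76 and -0.079), SMI1 has 1 point and 5 genes have none.

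Among the β-1,6-glucan genes, KRE1 and KRE9 were measured in both replicates. KRE1, a GPI-anchored wall protein that also serves as the membrane receptor of the K1 toxin, had a dye ratio of 0.796 in replicate 1 and 1.05 in replicate 2. Its turned log2 values were 0.33 and 0.071, both on the positive side. The mean was 0.20 ± 0.18 (SD, n = 2), a size of 1.15-fold, with a 95% interval from -0.15 to 0.55 and an adjusted p of 0.487 (limma), the lowest adjusted p of the 4 genes. KRE9, a secreted protein needed for normal β-1,6-glucan, had dye ratios of 0.992 in replicate 1 and 0.993 in replicate 2. Its turned values, 0.012 and -0.011, lay on either side of 0, and the mean was 0.00065 ± 0.016 (SD, n = 2; adjusted p = 0.997, limma). A mean at least as far from 0 as that of KRE9 was found for 99.9% of the ORFs. The 95% interval of KRE9 ran from -0.29 to 0.29, the narrowest of the 4.

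The other 3 genes of β-1,6-glucan assembly were blank in both replicates. KRE6 and its paralogue SKN1 encode membrane proteins related to glycoside hydrolases, and KNH1 is the paralogue of KRE9. No paralogue pair among the 10 genes, whether FKS1 and GSC2, KRE6 and SKN1 or KRE9 and KNH1, thus had a value for both partners.

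Across the 4 genes measured in both replicates, 0 passed an adjusted p of 0.05 in limma, where the share over the 3117 ORFs was also 0%. At an unadjusted p of 0.05 the count was 0 of 4, against 417 ORFs or 13.4% of all, and the lowest unadjusted p was 0.182 (KRE1; limma). A mean over 2-fold in size whose replicates also shared a sign was found for none of the 4, against 0.962% of all ORFs, and at 1.5-fold again for none, against 4.04%. FKS1, KRE1 and KRE9 had positive means and RHO1 a negative one, 3 of 4 positive where 52.1% of all ORFs were. The median of the 4 means was 0.10, against 0.01 over all ORFs. It was 0.17 in replicate 1 and -0.017 in replicate 2, so its sign rested on replicate 1. RHO1 and KRE1 kept their sign between the replicates after turning, 2 of 4, where 64.1% of all ORFs did. In order of the mean, FKS1 came first, then KRE1, KRE9 and RHO1, and each neighbouring pair in this order had overlapping 95% intervals.

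**Figure D2:**
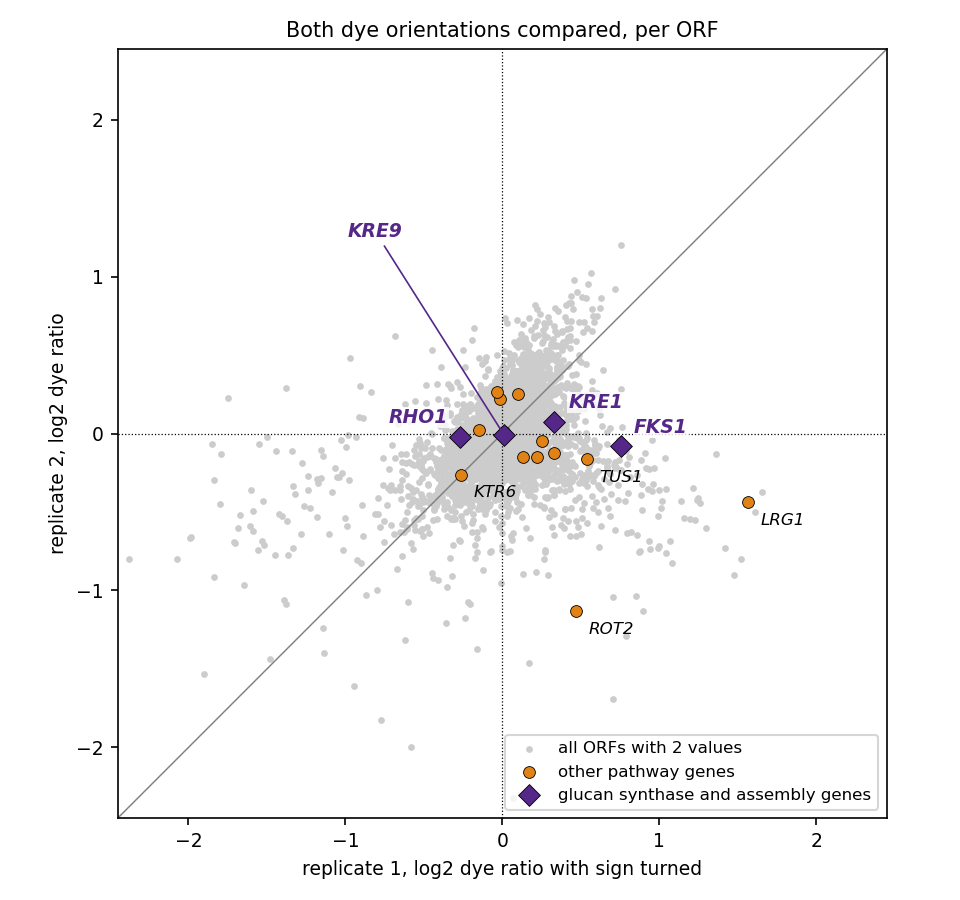
Turned log2 dye ratio in replicate 1 (x axis) against the log2 dye ratio in replicate 2 (y axis) for the 3117 ORFs with both values (grey), the 4 measured glucan genes (diamonds) and 13 other pathway genes (circles). The grey diagonal marks equal values in both replicates. RHO1 and KRE9 lie near the centre, and FKS1, TUS1, LRG1 and ROT2 lie at the lower right, positive in replicate 1 and negative in replicate 2. PKC1, SKN7, KRE5, TRS65 and KRE9 have the same signs but lie nearer to 0 in replicate 1.

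Related genes were taken from a list of 22, made of Rho1 regulators, Rho1 effectors and genes of β-1,6-glucan synthesis in the endoplasmic reticulum (ER). The list also held KTR6 and TRS65, entered for a Golgi step or other killer toxin resistance. Of these 22, 13 had values in both replicates (59.1%, against 50.2% of all ORFs) and 3 in replicate 1 alone. The remaining 6 had values in neither (27.3%, against 39.5% of all ORFs). None of the 13 passed an adjusted p of 0.05 in limma (0% of all ORFs) or an unadjusted p of 0.05 (13.4% of all ORFs). With the spread of each gene left unmoderated, 1 of the 13 (KTR6, whose replicates were nearly equal) was under an unadjusted p of 0.05, against 264 or 8.47% of all ORFs. None of the 13 reached 1.5-fold with replicates that shared a sign, against 4.04% of all ORFs. Positive means were found for 9 (69.2%, against 52.1% of all ORFs) and negative means for 4. The median of the 13 means was 0.10, against 0.01 over all ORFs. For the 13 genes the median was 0.13 in replicate 1 and -0.12 in replicate 2. Only 3 of the 13 kept their sign after turning (ROM1, KEG1 and KTR6), that is 23.1% against 64.1% of all ORFs. The other 10 had the same deposited sign in both replicates, as FKS1 did, 76.9% against 35.9% of all ORFs.

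Rho1 is switched on by guanine nucleotide exchange factors (GEFs). ROM1 had turned values of 0.098 and 0.25 in replicates 1 and 2, on the same side, with a mean of 0.18 ± 0.11 (SD, n = 2; limma adjusted p = 0.491). TUS1 had 0.54 and -0.16, on opposite sides, with a mean of 0.19 ± 0.50 (adjusted p = 0.694). ROM2, the third GEF in the list, was blank. GTPase-activating proteins switch Rho1 off. LRG1, one of these and known to act on the branch that controls glucan synthesis, had 1.57 and -0.44 and the widest gap between replicates of all genes in the list, 2.01. Its mean was 0.56 ± 1.42 (adjusted p = 0.643), and 0.321% of all ORFs had a gap at least as wide. SAC7 had 0.51 in replicate 1 alone, and BAG7 and BEM2 were blank. RDI1, a GDP dissociation inhibitor, had -0.15 and 0.021, and it was the measured gene of this group that was negative in replicate 1.

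The 3 genes entered in the list as effectors of Rho1 were all measured and lay on opposite sides in the 2 replicates. Other Rho1 effectors were not in this group. PKC1, the kinase at the head of the cell wall integrity cascade, had turned values of 0.13 and -0.15. BNI1, a formin that nucleates actin cables, had -0.017 and 0.22, and SKN7, a transcription factor linked to wall synthesis, had 0.33 and -0.12. Their means of -0.009, 0.10 and 0.10 had adjusted p-values of 0.980, 0.707 and 0.779 (limma). Of the pair that attaches a lipid to Rho1, CDC43 was blank and RAM2 had 0.21 in replicate 1 alone.

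Early β-1,6-glucan synthesis needs a group of ER proteins. KRE5, related to UDP-glucose:glycoprotein glucosyltransferases, had 0.22 and -0.15. KEG1, a protein known to bind Kre6, had 0.0081 and 0.011, close to 0 in both replicates. CNE1 (calnexin) had -0.035 and 0.26. ROT2, the catalytic subunit of glucosidase II, had 0.47 and -1.13, a gap of 1.60, with a mean of -0.33 ± 1.13 (adjusted p = 0.735, limma). ROT1 had 0.15 in replicate 1 alone, and BIG1 and CWH41 were blank. KTR6, a Golgi mannosylphosphate transferase, had the closest replicates of the list at -0.263 and -0.261. Its mean of -0.26 ± 0.0014 (SD, n = 2) gave the lowest unadjusted p of the 13, 0.066, and an adjusted p of 0.386 (limma). TRS65 (KRE11), a subunit of a Golgi tethering complex, had 0.25 and -0.048.

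**Figure D3:**
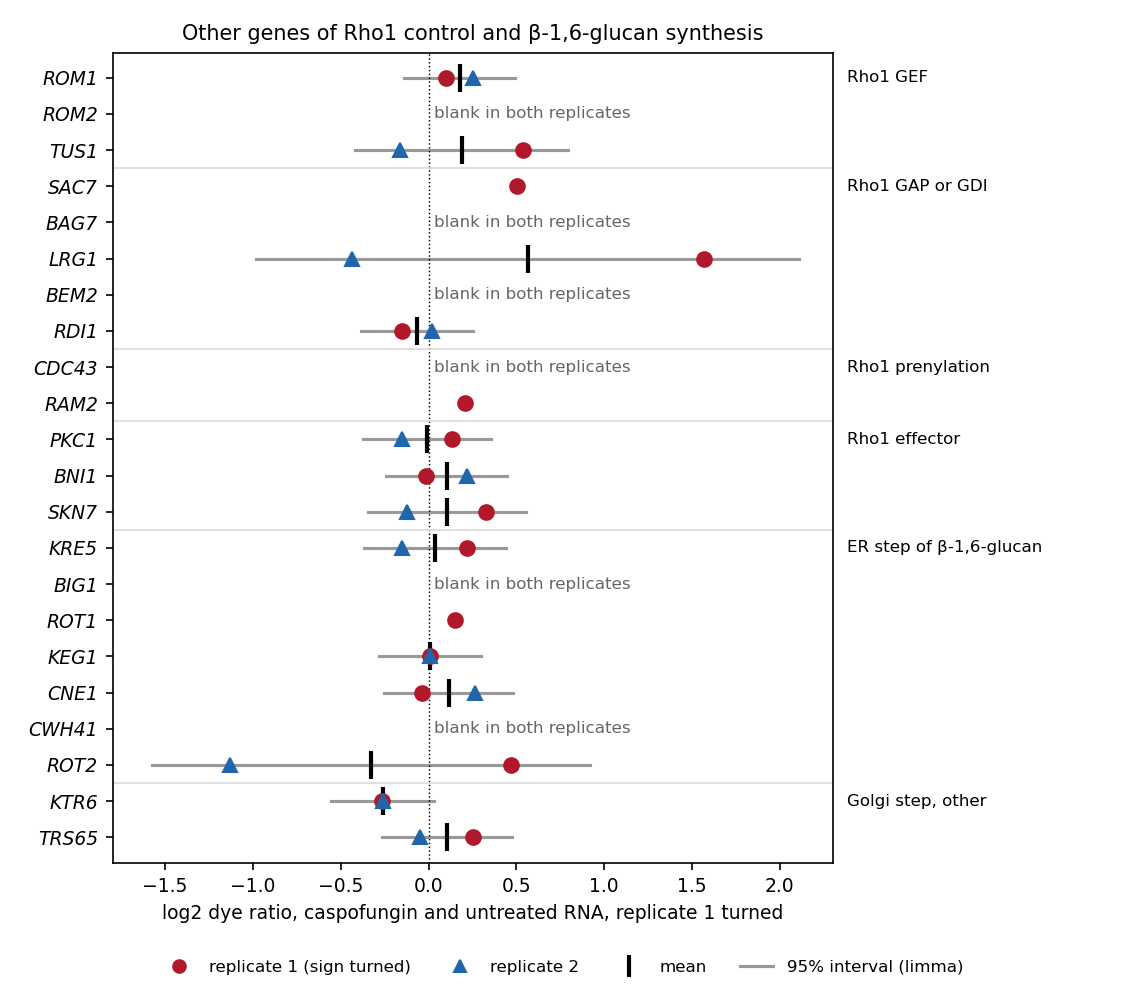
Turned log2 dye ratio (x axis) of the 22 other pathway genes (y axis, grouped by role), with replicate 1 as circles, replicate 2 as triangles, the mean as a black bar and the limma 95% interval as a grey line. All 13 intervals include 0, LRG1 and ROT2 have the widest, and KTR6 has both points at -0.26.

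The pattern of FKS1, high in replicate 1 and near 0 in replicate 2, was shared with other genes. Among 2762 other ORFs with a gene symbol, the nearest by Euclidean distance over the 2 turned values were TOR1 (0.77 and -0.10, distance 0.0252), YPF1 (0.76 and -0.053, distance 0.0263) and SDS24 (0.79 and -0.094, distance 0.0316). With 2 values per gene this likeness is a description of these arrays.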

How the data were processed

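The authors deposited 1 table with a log2 dye ratio per ORF for each of 2 samples, both comparing caspofungin-treated with untreated RNA. The log2 unit was checked on the values: 2 raised to each value had at most 4 decimals (tolerance 0.001 of the last decimal) for 100% of the values in both columns. Background correction, normalization, centring, spot averaging and the rule for blanks are not stated in any source used here. Replicate 1 had a median of -0.073 over its deposited values, and replicate 2 had -0.044. Per the labels, 4 arrays were analysed per condition with dyes exchanged. The 2 control entries were left out. ORFs were named through RefSeq's gene table (5654 of 6207 matched).

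Replicate 1 was multiplied by -1. All 3117 ORFs with both values entered a limma fit (version 3.58.1, under R 4.3.3) that set their mean against 0 (lmFit, eBayes, two-sided, Benjamini-Hochberg over all of them, threshold 0.05), which leaves 1 residual degree of freedom per ORF. The fit was tested on simulated data. Each member is named, every gene of the wider list may be named, and the 3 ORFs nearest to FKS1 are named. Members, lists and tests were chosen with earlier results of these data known. The alternatives tried were the deposited sign of replicate 1, centring, scaling, other priors, ORFs with 1 value, another fold minimum and each replicate left out.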

Additional observations from a re-analysis of the deposited data

How the results depend on the processing

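None of the 4 measured genes passed an adjusted p of 0.05 under the deposited sign of replicate 1, centring or scaling (lowest adjusted p 0.9993, 0.520 and 0.687, limma). The count of ORFs called, 0 as reported, came to 43 after subtraction of each column's median, to 110 when also scaled, and to 115 when centred on the median of the ORFs measured in both, an alternative chosen after seeing the data. The prior of the fit rested on 2.64 degrees of freedom as reported, 10.6 after the first centring and 17.1 after the last. The count stayed at 0 with the deposited sign, ORFs with a value in at least 1 column, a robust prior and the plain statistic, which gave 264 ORFs, and none of the 4 genes, at an unadjusted p of 0.05. ORFs beyond 2-fold numbered 30, or 10 with the deposited sign, 126 at 1.5-fold and 27 to 87 with single replicates. With the deposited sign of replicate 1, which by construction turns its values, the signs changed for FKS1 (-0.42), RHO1 (0.12), KRE9 (-0.012), KRE1 (-0.13), the median of the measured members (-0.070) and that of the other pathway genes (-0.14). KRE9 also became negative when centred (-0.014) and scaled (-0.013). Leaving out 1 replicate returns the value of the other, so it adds no new value for a gene. The ranges were -0.079 to 0.76 for FKS1, -0.27 to -0.024 for RHO1, -0.011 to 0.012 for KRE9 and 0.071 to 0.33 for KRE1. The median of the members ranged from -0.017 to 0.17 and that of the other pathway genes from -0.12 to 0.13; the cause was not tested. With 1 replicate left there was no test. The count of the other pathway genes with the same sign under both dye orientations was 10 of 13 as deposited and 11 of 13 with each column centred (added after seeing the data), against 38.6% of all ORFs. For the 4 measured members this count was 2 as deposited and 3 with each column centred, where RHO1 joined FKS1 and KRE9. No paired analysis was possible because there is 1 group and a ratio pairs the treated and the untreated RNA by itself.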
